A study of Mus musculus with 18 samples.

Results

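Gasdermins are pore-forming proteins of barrier epithelia and immune cells. Each has an amino-terminal domain that can insert into membranes and a carboxy-terminal domain that holds it inactive; a protease that cuts the linker between them frees the pore-forming domain, and the pores release interleukin-1 family cytokines and can kill the cell by pyroptosis. In the mouse the A and C genes have multiplied into clusters of close copies, the A genes are known from skin and hair follicle, where mutations of Gsdma3 cause hair loss, and the C genes are best known from the gut, where type 2 cytokines raise them. The members described here are the 9 mouse genes Gsdma, Gsdma2, Gsdma3, Gsdmc, Gsdmc2, Gsdmc3, Gsdmc4, Gsdmd and Gsdme, chosen by symbol. Of the 21011 genes in the count table, 8 are members: Gsdme is listed under its older name Dfna5, and no value for Gsdmc4 was analysed here. The test used 16517 genes and included 6 members, because Gsdma2 and Gsdmc3 were under the filter on low counts.

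RNA was counted in 18 mice, 1 library each, from the epidermis of telogen dorsal skin, the resting phase of the hair cycle, which includes hair follicles and sebaceous glands. Tamoxifen was given at 8 weeks of age and skin was taken 10 weeks later. KR mice (n = 4, numbered 1, 3, 4 and 5) carried K14-CreERT, driven by the keratin 14 promoter of the basal layer and its appendages, and lost Rbpj, which encodes the DNA-binding factor of the Notch pathway. LR mice (n = 3) carried Lrig1-CreERT2, active where Lrig1 is expressed, chiefly in the upper hair follicle, and also lost Rbpj. KN1 mice (n = 4) carried a driver labelled K14-CreERT1 and lost the receptor gene Notch1. Each mutant had controls of its own cage batch or litter: 2 for KR (numbered 4 and 6), 3 for LR (2, 3 and 5) and 2 for KN1 (1 and 7); the labels do not name the alleles that the controls carried. RNA came from epidermal cells freed from the skin, filtered and measured together. A change in the share or recovery of a cell type and a change in RNA per cell therefore cannot be told apart.

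Library totals ran from 8076316 to 21216169 counts. Notch1 fell in KN1 mice (log2 fold change −0.91 ± 0.19 SE, adjusted p = 0.0251), whereas Rbpj did not pass the test in KR (−0.47 ± 0.17, 0.135) or LR (−0.66 ± 0.17, 0.0659). Rbpj was also lower in every KN1 mouse than in its controls, without passing the test (−0.34 ± 0.18, 0.31), although KN1 mice lost Notch1 and not Rbpj. Counts over a whole gene do not resolve a deleted exon. The 6 basal keratinocyte markers, including Krt5 and Krt14, summed to 27400 to 42600 CPM (read counts scaled to library size) over all groups, while 6 of 8 mast cell and eosinophil markers have no value in the table. KR control 4 and KN1 control 1 each merge sequencing from 2 occasions. KR control 6, LR control 5 and KN1 control 7 carry a second sample name and are called second-named controls. CPM values use TMM factors over the tested genes, and the threshold is an adjusted p of 0.05 by edgeR's quasi-likelihood test.

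The sequences show which members could be told apart by short reads. The A genes lie on chromosome 11 from 98626360 to 98677708 (GRCm38, which is mm10; plus strand) over 51.3 kb in the order Gsdma3, Gsdma2, Gsdma. The C genes lie on chromosome 15 from 63775968 to 63912297 (minus strand) over 136.3 kb in the order Gsdmc, Gsdmc2, Gsdmc3, Gsdmc4. Gsdmd is on chromosome 15 from 75862327 to 75867408 (plus strand), outside the C cluster, and Gsdme is on chromosome 6 from 50188888 to 50263862 (minus strand), where it overlaps Mpp6 on the opposite strand. The first 90 coding bases of each cluster member are printed from GENCODE M21 transcripts, 5′ to 3′, with capitals at bases that differ from Gsdma (A genes) or from Gsdmc2 (C genes).
Gsdma: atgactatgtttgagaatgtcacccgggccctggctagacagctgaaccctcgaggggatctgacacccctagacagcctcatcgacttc
Gsdma2: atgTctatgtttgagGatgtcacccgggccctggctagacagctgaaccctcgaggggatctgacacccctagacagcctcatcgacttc
Gsdma3: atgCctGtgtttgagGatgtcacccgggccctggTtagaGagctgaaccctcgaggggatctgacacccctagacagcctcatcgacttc
Gsdmc: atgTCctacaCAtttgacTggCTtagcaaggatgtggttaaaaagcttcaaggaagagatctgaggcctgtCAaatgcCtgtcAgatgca
Gsdmc2: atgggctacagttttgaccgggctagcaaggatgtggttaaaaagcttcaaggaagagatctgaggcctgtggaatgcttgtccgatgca
Gsdmc3: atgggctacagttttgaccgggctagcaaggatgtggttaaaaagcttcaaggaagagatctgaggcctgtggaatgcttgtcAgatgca
Gsdmc4: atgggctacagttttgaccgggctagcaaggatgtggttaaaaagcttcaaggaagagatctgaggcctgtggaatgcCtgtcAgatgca

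Over these bases Gsdmc3 differed from Gsdmc2 at 1 base and Gsdmc4 at 2, whereas Gsdmc differed at 11. Gsdma2 and Gsdma3 differed from Gsdma at 2 and 5. Over the whole coding sequence Gsdmc2 and Gsdmc3 were identical at 97.08% of aligned bases and Gsdmc2 and Gsdmc4 at 93.65%. Gsdmc was 86.32% identical to Gsdmc2, and the A genes were 89.01% to 90.35% identical to each other. A and C genes shared 51.53% to 53.5%.

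The share of each transcript that no other member could have produced follows from these identities. Of all windows of 50 bases along the longest coding transcript, 94.75% of those in Gsdma3 and 91.74% in Gsdma occurred in no other member. The share was 83.62% for Gsdmc, 51.49% for Gsdmc2, 53.05% for Gsdmc3 and 61% for Gsdmc4. With windows of 150 bases it rose to 100% for the A genes, 96.85% for Gsdmc and 83.36% for Gsdmc2. All windows of Gsdmd and Gsdme were unique at each length. The labels do not say how reads that fit more than 1 place were counted. Gsdmc2 and Gsdmc3 counts are uncertain between those genes and Gsdmc4, whereas Gsdma3 and Gsdmc rest mostly on sequence of their own.

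**Figure D1:**
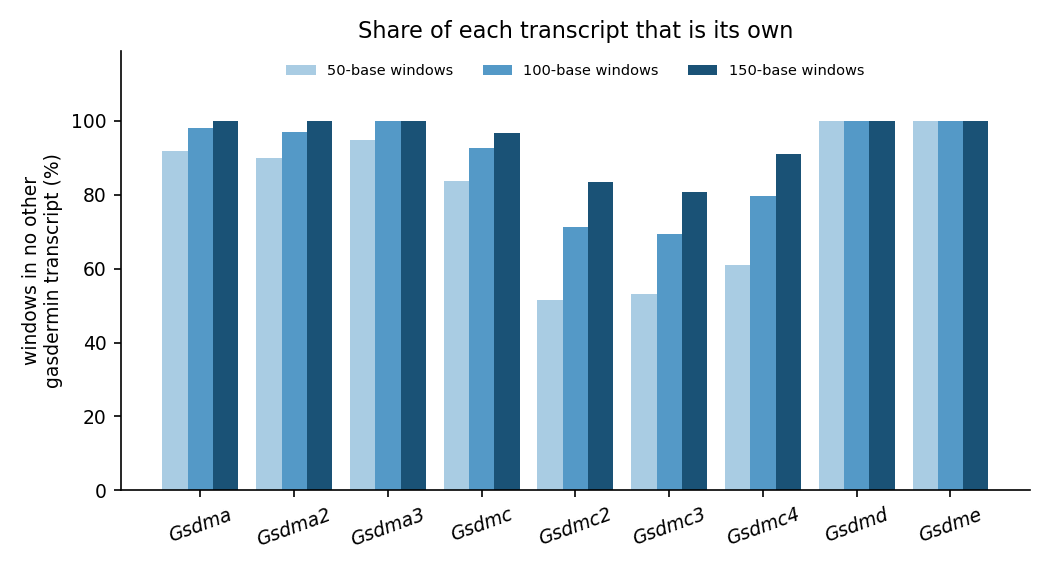
Percent of windows of 50, 100 and 150 bases along the longest coding transcript of each gasdermin gene that occur in no other member (y axis) for each of the 9 genes. Gsdmc2 and Gsdmc3 are lowest at 51.49% and 53.05% for 50 bases, and the A genes reach 100% at 150 bases.

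In control epidermis Gsdma and Gsdma3 were the most abundant members. Per kilobase of transcript, over the 7 controls, Gsdma was at 21.7 ± 5.36 CPM per kb (SD, n = 7) and Gsdma3 at 10.3 ± 3.00. Gsdme followed at 1.71 ± 0.712, Gsdmc at 1.67 ± 0.760, Gsdmd at 0.964 ± 0.228 and Gsdmc2 at 0.238 ± 0.174. Gsdma ran from 12.8 to 28.8 and Gsdma3 from 7.13 to 14.3, so these neighbours in the order overlapped, and Gsdme, Gsdmc and Gsdmd also shared part of their ranges. Gsdma3 did not overlap Gsdme (up to 3.07), and Gsdmd (from 0.566) did not overlap Gsdmc2 (up to 0.472). The place of Gsdme depends on its annotated length, since the union of its exons, which includes a long alternative end, gives 0.336 CPM per kb. Gsdma2 had 41 counts over all 18 mice and none in 4 of them. Gsdmc3 had 28 counts and none in 8 mice. For a library with 0 counts, 3 counts allow up to 0.145 to 0.415 CPM; this limit covers counting error only.

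**Figure D2:**
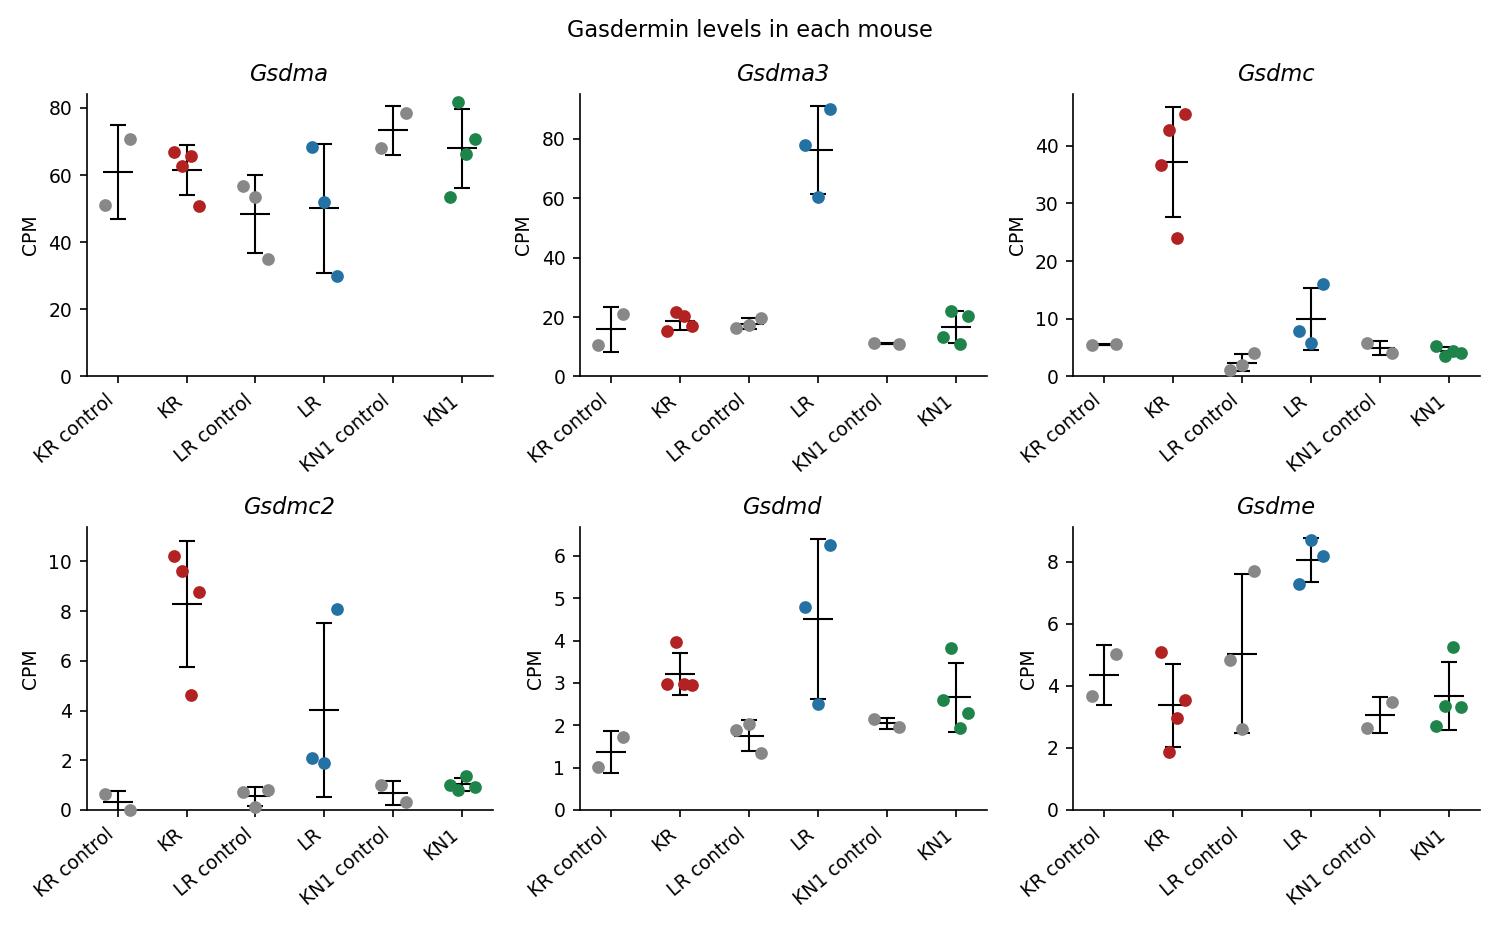
CPM (y axis) of the 6 tested gasdermin genes (1 panel per gene) in each of the 18 mice, by group, with points for mice and bars for the group mean ± SD. LR mice stand above their controls for Gsdma3 (60.5 to 90.1 against 16.3 to 19.8 CPM), and KR mice stand above theirs for Gsdmc (24.0 to 45.5 against 5.41 and 5.59 CPM).

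Of the A genes, Gsdma3 rose in LR mice, and Gsdma passed the test in none of the 3 mutants. Gsdma3 stood at 78.0, 60.5 and 90.1 CPM in LR mice 1, 2 and 3, against 16.3, 17.2 and 19.8 CPM in LR controls 2, 3 and 5. All 3 LR mice were far above all 3 controls, and the controls lay close together. The mean was 76.2 ± 14.9 CPM (SD, n = 3) against 17.8 ± 1.80 (n = 3), which is 4.28-fold (log2 fold change 2.10 ± 0.26 SE, adjusted p = 0.000801). This call was kept in every one of 28 other settings (another tool, filter, scaling, set of controls or covariate, or 1 mouse left out), with log2 fold changes from 1.96 to 2.32. These settings include fits without a KR or KN1 mouse or control, which keep all LR mice and could hardly move the value.

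In KR mice 1, 3, 4 and 5 Gsdma3 was at 15.3, 21.6, 20.4 and 17.0 CPM, against 10.5 and 21.1 in KR controls 4 and 6. Of the 4 mutants, 3 lay between the 2 controls (log2 fold change 0.25 ± 0.28, adjusted p = 0.619). In KN1 mice 1 to 4 it was at 13.1, 22.1, 11.1 and 20.3 CPM, against 11.2 and 10.9 in KN1 controls 1 and 7. KN1 mouse 3 lay within the control range and the other 3 above it, and the difference did not pass the test (0.60 ± 0.29, adjusted p = 0.273).

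Gsdma, whose human counterpart is cut by a streptococcal protease in skin, was at 68.3, 52.0 and 30.1 CPM in LR mice against 56.6, 53.6 and 35.0 in their controls. The LR groups overlapped almost fully (log2 fold change 0.05 ± 0.25, adjusted p = 0.94). In KR mice it was at 61.5 ± 7.39 CPM (SD, n = 4) against 60.9 ± 13.98 (n = 2), and in KN1 mice at 68.0 ± 11.8 (n = 4) against 73.3 ± 7.26 (n = 2). Neither difference passed the test (0.02 ± 0.26, adjusted p = 0.977, and −0.11 ± 0.26, adjusted p = 0.862). The group means of Gsdma and Gsdma3 thus stood in opposite order in LR mice and LR controls. Per kilobase, Gsdma3 stood at 51.6 ± 10.1 CPM per kb in LR mice against 18.4 ± 7.03 for Gsdma. The lowest Gsdma3 value (40.9) was above the highest Gsdma value (25.04). In LR controls the levels were 12.0 ± 1.21 for Gsdma3 and 17.8 ± 4.30 for Gsdma. LR control 5 already had Gsdma3 (13.38) slightly above Gsdma (12.83). Gsdma2 had too few counts for a comparison, with 8 against 7 counts in KR and its controls, 5 against 1 in LR (ratio of counts scaled to depth 4.55, 95% counting interval 0.509 to 215) and 15 against 5 in KN1.

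Of the C genes, Gsdmc and Gsdmc2 rose in KR mice, and Gsdmc also rose in LR mice. Gsdmc, whose human counterpart can be cut by Casp8, stood at 36.6, 42.7, 24.0 and 45.5 CPM in KR mice 1, 3, 4 and 5, against 5.41 and 5.59 in KR controls 4 and 6. Every KR mouse was above both controls, and KR mouse 4 was the lowest of the 4. The mean was 37.2 ± 9.57 CPM (SD, n = 4) against 5.50 ± 0.125 (n = 2), 6.76-fold (log2 fold change 2.76 ± 0.43 SE, adjusted p = 0.0105). With either control left out the change was as large but did not pass the test (2.73, adjusted p = 0.0668 without KR control 4, and 2.75, adjusted p = 0.213 without KR control 6). The other 25 of 27 settings kept the call, with adjusted p up to 0.0459. They include fits without an LR or KN1 mouse or control, which keep all KR mice and could hardly move the fold change.

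Gsdmc2 was at 10.2, 9.61, 4.61 and 8.78 CPM in KR mice 1, 3, 4 and 5, against 0.628 in KR control 4 and 0 counts in KR control 6, a depth at which 3 counts are 0.27 CPM. All KR mice were above both controls, again with KR mouse 4 lowest. The log2 fold change was 4.43 ± 0.83 (8.30 ± 2.53 CPM, n = 4, against 0.314 ± 0.444, n = 2; adjusted p = 0.0211), and its size rests on a control level near 0. The call was lost without KR control 6 (3.67, adjusted p = 0.27), without KR mouse 3 (4.36, 0.0656), without KR mouse 5 (4.41, 0.0602), without the 3 second-named controls (3.67, 0.126) and with second naming as a covariate (4.21, 0.34). Without KR control 4 the remaining control has 0 counts, so no fold is given for that setting.

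In LR mice 1, 2 and 3 Gsdmc was at 7.96, 5.86 and 16.1 CPM, against 1.18, 1.92 and 4.11 in LR controls 2, 3 and 5. The groups did not overlap, but LR mouse 2 was only slightly above LR control 5, and LR mouse 3 was well above the other two LR mice. The mean was 9.96 ± 5.38 CPM (n = 3) against 2.41 ± 1.53 (n = 3), 4.00-fold (log2 fold change 2.00 ± 0.40, adjusted p = 0.0196). The call was lost without LR mouse 3 (1.48, adjusted p = 0.139), without LR control 2 (1.69, 0.0666), without LR control 3 (1.86, 0.108) and when the LR cohort was fitted alone (2.01, 0.153), and without LR control 5 the value rose to 2.66. Against all 7 controls pooled it was 1.28 (adjusted p = 0.0372).

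Gsdmc2 in LR mice was at 2.11, 1.90 and 8.08 CPM against 0.709, 0.113 and 0.805 in the controls. No control reached the lowest LR mouse, and LR mouse 3 was again the highest. The log2 fold change of 2.82 ± 0.72 did not pass the test (adjusted p = 0.0674), and it was 1.83 without LR mouse 3 (adjusted p = 0.453). LR mouse 3 also had the lowest suprabasal marker sum of the LR mice (11360 CPM, against 25770 and 30700) and the highest Langerhans cell marker sum (1304, against 798.6 and 934); their part in its C gene levels was not tested. The log2 fold change of Gsdmc2 passed in 5 of 28 other settings: with DESeq2 (2.86, 0.0031), against all 7 controls (2.85, 0.00421), without LR mouse 2 (3.17, 0.0386), without KR control 4 (2.82, 0.0408) and without KR control 6 (2.82, 0.0386). The fits without a KR control keep all LR mice and LR controls, and the fold change stayed at 2.82.

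Gsdmc3 counts were 3, 2, 2 and 4 in KR mice against 1 and 0 in their controls, a ratio of 9.1 after scaling to depth, with a 95% counting interval of 1.32 to 392. In LR mice they were 2, 1 and 11 against 0 in all 3 controls, at least 4.25-fold higher when 3 counts are taken as the limit over the control group. LR mouse 3 held 11 of the 14 LR counts. No count was found in the 4 KN1 mice and 1 in each KN1 control, so no fold is given. These counts may include reads of Gsdmc2 or Gsdmc4, given the shared windows described above.

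In KN1 mice neither tested C gene passed the test. Gsdmc was at 5.32, 3.59, 4.43 and 4.02 CPM against 5.81 and 4.02 in the controls (log2 fold change −0.20 ± 0.41, adjusted p = 0.835). Gsdmc2 was at 0.990, 0.810, 1.38 and 0.919 CPM against 1.02 and 0.326 (0.47 ± 0.78, adjusted p = 0.798). Mutants and controls overlapped for both genes.

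Gsdmd, the main executor of pyroptosis downstream of Casp1 and Casp4, was higher in every mouse with an Rbpj deletion than in its controls, but did not pass the test. In KR mice 1, 3, 4 and 5 it was at 2.97, 3.96, 2.97 and 2.96 CPM against 1.01 and 1.71 (log2 fold change 1.27 ± 0.40, adjusted p = 0.0909). In LR mice it was at 4.79, 2.50 and 6.25 CPM against 1.89, 2.03 and 1.34 (1.36 ± 0.36, adjusted p = 0.0737). Neither pair of groups overlapped; LR mouse 2 was the closest to its controls. DESeq2 called both (KR 1.28, adjusted p = 0.0453; LR 1.36, 0.0278), and the LR value also passed against all 7 controls (1.39, 0.0103) and without LR mouse 2 (1.65, 0.0241). In KN1 mice Gsdmd was at 2.66 ± 0.817 CPM (n = 4) against 2.05 ± 0.133 (n = 2), and the groups overlapped (0.38 ± 0.38, adjusted p = 0.634).

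Gsdme, first described as a deafness gene, stayed short of the threshold in KR, LR and KN1. It was at 3.38 ± 1.34 CPM against 4.36 ± 0.972 in KR (log2 fold change −0.36 ± 0.39, adjusted p = 0.595), 8.06 ± 0.719 against 5.05 ± 2.55 in LR (0.66 ± 0.36, 0.39) and 3.67 ± 1.10 against 3.06 ± 0.581 in KN1 (0.27 ± 0.41, 0.77). Mutants and controls overlapped in all 3 comparisons. The labels name no strand setting for the counting, so it is not known whether reads of Mpp6 entered the Gsdme counts. The overlap is between whole genes, and overlap of their exons was not examined.

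Counted over the family, edgeR's quasi-likelihood test called 2 of 6 tested members in KR mice, where it called 1.60% of all tested genes, and 2 of 6 in LR mice, where it called 1.12%. All 4 of these calls were higher in the mutant, a direction in which 0.696% (KR) and 0.872% (LR) of all genes were called. In KN1 mice edgeR called 0 of 6, where it called 1.97% of all genes. An unadjusted p under 0.05 was reached by 3 of 6 members in KR (22.9% of all genes), 4 in LR (15.5%) and 0 in KN1 (18.5%). DESeq2 called the same numbers of members: 3 in KR (7.04% of all genes), 4 in LR (3.25%) and 0 in KN1 (5.21%). The mutants were all higher than their controls for 3 of 6 members in KR (19.0% of all tested genes), 4 of 6 in LR (10.3%) and 0 of 6 in KN1 (13.8%). For the 6 tested members the log2 fold changes had a median of 0.76 (KR), 1.68 (LR) and 0.32 (KN1), beside 0.04, −0.0041 and 0.02 for all tested genes. Gsdmc2 adds to all the KR counts and, except for edgeR's calls past the threshold, to the LR counts. It passed the filter on low counts through these mutants. Each KR and LR mouse was at 1.90 CPM or more and each control at 1.02 or less. Counts that include Gsdmc2 are therefore no test against the shares of all genes.

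**Figure D3:**
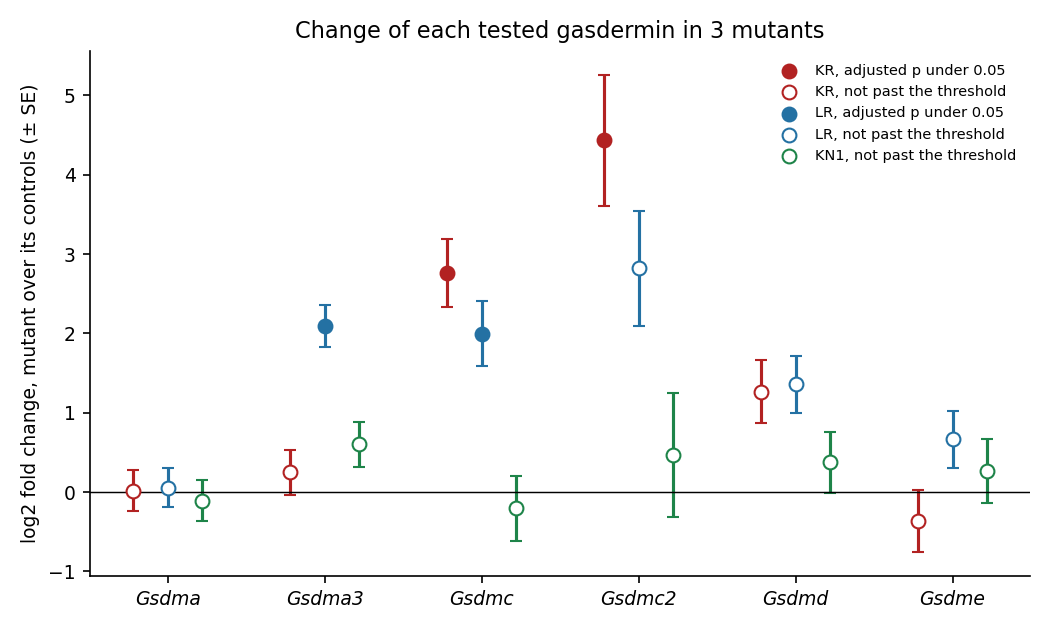
Log2 fold change (mutant over its own controls, y axis) of the 6 tested gasdermin genes in KR, LR and KN1, with bars of 1 SE and filled points where the adjusted p is under 0.05. The filled points are Gsdmc (2.76) and Gsdmc2 (4.43) in KR and Gsdma3 (2.10) and Gsdmc (2.00) in LR.

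Whether the mutants differed from one another was tested as the difference between their fold changes. The test by edgeR called 0 of 18 such differences; 6 had an unadjusted p under 0.05 and DESeq2 called 4. Few genes pass here at all: 0.00605% of all tested genes for KR minus LR, 0% for KR minus KN1 and 0.00605% for LR minus KN1. At an unadjusted p under 0.05 there were 1 member for KR minus LR (4.15% of all genes), 2 for KR minus KN1 (7.57%) and 3 for LR minus KN1 (7.04%), and by DESeq2 1 (0.0191%), 1 (0.210%) and 2 (0.427%). Gsdmc2, which passed the filter through KR and LR mice, is in both unadjusted counts against KN1. For Gsdma3 the log2 difference was −1.85 ± 0.37 for KR minus LR (adjusted p = 0.429, and 0.0187 by DESeq2) and 1.50 ± 0.38 for LR minus KN1 (0.25, and 0.0429 by DESeq2). For Gsdmc it was 2.96 ± 0.57 for KR minus KN1 (adjusted p = 0.168, and 0.0011 by DESeq2), 2.20 ± 0.57 for LR minus KN1 (0.261, and 0.0345 by DESeq2) and 0.76 ± 0.56 for KR minus LR (0.98). For Gsdmc2 the differences were 3.97 ± 1.11 for KR minus KN1 (0.443), 2.36 ± 1.07 for LR minus KN1 (0.678) and 1.61 ± 1.10 for KR minus LR (0.98).

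Adding the members' counts in each mouse set the A cluster beside the C cluster. The C sum holds Gsdmc, Gsdmc2 and Gsdmc3, since no value for Gsdmc4 was analysed, and so do the ratios and shares taken from it. The C sum was at 47.1, 52.5, 28.8 and 54.7 CPM in KR mice 1, 3, 4 and 5 against 6.09 and 5.59 in KR controls 4 and 6, while the A sum was at 82.3, 84.3, 86.6 and 68.1 against 61.7 and 92.3. All KR mice were above both controls for the C sum, and they lay between the 2 controls for the A sum. In mean log2 CPM the C sum differed by 2.93 and the A sum by 0.08.

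In LR mice both sums were above every control. The A sum was at 146.6, 112.4 and 120.2 CPM against 73.0, 70.8 and 54.7 (log2 change 0.94), and the C sum at 10.3, 7.85 and 25.3 against 1.89, 2.03 and 4.92 (2.25). Gsdma3 made up 53.2%, 53.8% and 74.9% of the A counts in LR mice 1, 2 and 3, against 22.4%, 24.2% and 36.1% in the controls. In KN1 mice the A sum was at 85.1 ± 16.6 CPM (n = 4) against 84.5 ± 6.97 (n = 2) and the C sum at 5.37 ± 0.858 against 5.67 ± 1.72, with overlap in both.

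The ratio of the C to the A sum changed by 2.85 (KR), 1.31 (LR) and −0.05 (KN1) on the log2 scale. In single mice the log2 ratio ran from −1.59 to −0.32 in KR against −4.05 and −3.34 in the controls, so every KR mouse had more C counts per A count than any control mouse of the study. In LR mice it was −3.84, −3.84 and −2.25 against −5.27, −5.12 and −3.48; LR control 5 was above LR mice 1 and 2, so the LR groups overlapped. Gsdmc made up 81.3% ± 2.67 (n = 4) of the C counts in KR mice and 71.9% ± 7.497 (n = 3) in LR mice. Sums, ratios and shares are given without a test.

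**Figure D4:**
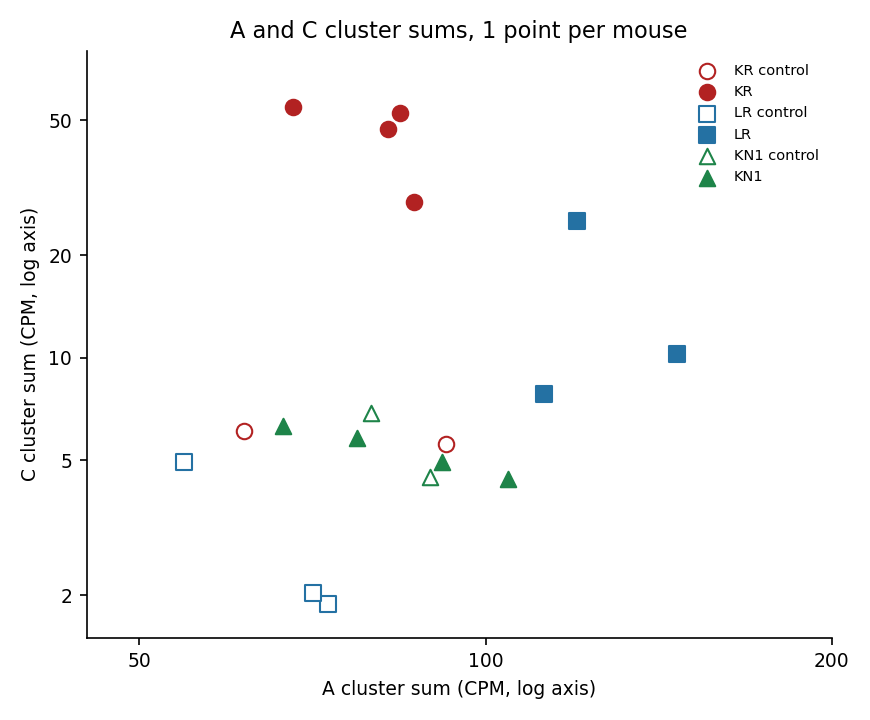
Summed CPM of the A cluster (x axis, log scale) and of the C cluster without Gsdmc4 (y axis, log scale) in each of the 18 mice. Filled marks are mutants, open marks their controls, and colour and shape give the cohort. KR mice lie at 28.8 to 54.7 CPM on the C axis, above all other mice, and LR mice at 112.4 to 146.6 CPM on the A axis, to the right of all others.

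Across the 18 mice, log2 CPM of Gsdmc and Gsdmc2 correlated with r = 0.84 and of Gsdmc2 and Gsdmc3 with r = 0.78; the counts of the latter pair may include reads of each other. Gsdma and Gsdma3 gave r = −0.37, and Gsdma and Gsdmc r = −0.09. The genes outside the family most like the C sum over the 18 mice, among 15014 ranked, were Sprr2a3 (r = 0.94), Ddah1 (0.93), Comp (0.90), RP23-81K14.2 (0.89) and Itgax (0.89). Those most like the A sum were Tnfsf11 (r = 0.84), Ccl1 (0.82), Dnmt3l (0.82), Llgl1 (0.79) and Kctd17 (0.79). All these values mix differences between groups with differences between mice of a group, and the mice share batches.

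Of the cell type marker sums, 5 did not overlap between KR mice and their controls: Langerhans cell, macrophage and neutrophil, T cell, basal and suprabasal. Those of sebocyte, upper follicle, hair matrix, mast cell and eosinophil, fibroblast, endothelial and melanocyte markers overlapped. Among all tested genes, 19.0% had every KR mouse above both controls, so a separation in that direction is common. The suprabasal sum was lower in KR mice, a direction for which no share of all genes is given. The 5 Langerhans cell markers, each with a value, summed to 1320 to 1520 CPM in KR mice against 670 to 1030 in their controls, and Mfge8 among them passed the test (log2 fold change 1.14 ± 0.28, adjusted p = 0.048). The 8 of 10 macrophage and neutrophil markers with a value summed to 84.4 to 111 against 42.1 to 73 CPM, and Ly6g and Csf3r have no value in the table. The 6 T cell markers summed to 140 to 256 against 62.3 to 137 CPM. The 6 basal markers summed to 33100 to 40100 against 29000 to 31400 CPM, and Krt14 among them rose (0.82 ± 0.16, adjusted p = 0.0211). The 7 suprabasal markers summed to 12300 to 27300 against 29800 to 30000 CPM. In LR mice the Langerhans sum was 799 to 1300 against 557 to 867 CPM, the macrophage and neutrophil sum 47.9 to 67.1 against 43.7 to 68.6, and the suprabasal sum 11400 to 30700 against 19400 to 37100, all with overlap, as was the T cell sum (47.1 to 120 against 118 to 163). The basal sum was 31500 to 33400 against 27400 to 31000 CPM in LR, without overlap. Among all tested genes, 10.3% had every LR mouse above every LR control. A sum weights abundant genes most. The median log2 fold change of single markers was 0.05 (basal) and 0.09 (T cell) in KR and −0.05 (basal) in LR. In KR it was 0.80 (Langerhans cell), 0.83 (macrophage and neutrophil) and −0.90 (suprabasal). Beside Gsdma3 in LR, the 10 sebocyte markers summed to 1790 to 2550 against 2960 to 3310 CPM, lower and without overlap. Of the 6 upper follicle and sebaceous duct markers, which summed to 2950 to 4450 against 3020 to 4130, Gata6 rose (log2 fold change 1.41 ± 0.21, adjusted p = 0.00159). The sums of the 13 hair matrix and root sheath markers overlapped in KR (24.9 to 994 against 33.9 to 585 CPM) and LR (32.7 to 1060 against 16.5 to 610) but not in KN1 (54.5 to 977 against 21.3 to 29.8, median log2 fold change 5.17). In KN1 mice 1 to 4 the sum was uneven, at 55.2, 977, 54.5 and 317.6 CPM. It was also high in LR mouse 2 (1056), LR control 2 (610.5) and KR control 6 (585.1), beside 16.46 in LR control 5. Hair may thus not have been resting in every mouse, although the skin is described as telogen. In KN1, where 13.8% of all tested genes had every mutant above both controls, 0 of the 13 markers passed the test. With their summed level as a covariate, chosen after seeing the data, Gsdma3 in LR (2.07, adjusted p = 0.000978), Gsdmc in KR (2.84, 0.00378) and LR (2.09, 0.00916) and Gsdmc2 in KR (4.69, 0.0123) kept their calls. The part of the other marker lists in the results was not tested.

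Genes of the machinery that acts on gasdermins were tested in the same fit. Of 41 listed genes, 34 have a value and 30 were tested, in lists of inflammasome sensors and adaptors (7 tested), proteases that cut gasdermins (7), regulators of pyroptosis (12) and cytokines released through the pores (4). By edgeR, 0 passed in KR (1.60% of all tested genes did), 1 rose in LR (1.12%) and 1 fell in KN1 (1.97%). At an unadjusted p under 0.05 there were 9 (22.9% of all genes), 9 (15.5%) and 7 (18.5%), and DESeq2 called 4 (7.04%), 3 (3.25%) and 1 (5.21%). With 30 genes, edgeR counts of 0 or 1 lie near these shares. Median log2 fold changes of the 30 were −0.11, 0.04 and −0.21.

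Casp8, an apoptotic protease that can also cut GSDMC and GSDMD, was the gene that rose: 51.6 ± 4.58 CPM in LR mice (n = 3) against 29.7 ± 1.26 (n = 3), log2 fold change 0.80 ± 0.14, adjusted p = 0.00713. Casp4, the mouse sensor of intracellular lipopolysaccharide that cuts GSDMD, was the gene that fell: 9.56 ± 1.09 CPM in KN1 mice (n = 4) against 17.7 ± 1.82 (n = 2), −0.89 ± 0.18, adjusted p = 0.0204. Values short of the threshold included those of Casp6 (log2 fold change 0.56 ± 0.19, adjusted p = 0.107) and Casp8 (0.35 ± 0.15, 0.176) in KR and Casp1 in KN1 (−0.55 ± 0.22, 0.187). In KN1 mice the 6 T cell markers summed to 77.2 to 99 CPM against 168 to 191, with Cd3d, Cd3g and Trdc called lower (−1.29 ± 0.29, adjusted p = 0.0317; −1.41 ± 0.32, 0.0317; −1.59 ± 0.36, 0.0343). The Langerhans sum was 980 to 1220 against 1400 to 1860 and the macrophage and neutrophil sum 51.7 to 62.5 against 62.9 to 83.8, while the melanocyte sum was higher (50.8 to 74.8 against 26.9 to 29) and Pmel rose (1.01 ± 0.25, 0.0423). Their part in the Casp4 value was not tested. The LR minus KN1 difference was 1.41 ± 0.25 for Casp4 (adjusted p = 0.0587) and 0.51 ± 0.20 for Casp8 (0.621).

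Among sensors and adaptors the smallest adjusted p belonged to Nlrp10 (0.365) and Nlrp1b (0.466) in KR, Nlrp10 (0.173) and Aim2 (0.293) in LR and Pycard (0.132) and Naip5 (0.355) in KN1. Among regulators, Ninj1, which ruptures the membrane after pores form, was at 0.71 ± 0.18 in LR (adjusted p = 0.0632), ahead of Zdhhc9 (−0.58 ± 0.19, 0.139). Zdhhc9 was at −0.76 ± 0.19 in KR (0.0519), followed by Vps4b (−0.52 ± 0.16, 0.0909), and Chmp3 (−0.40 ± 0.13, 0.123) and Vps4b (−0.48 ± 0.16, 0.129) were closest in KN1. The cytokine gene Il1b was at 3.06 ± 1.33 CPM in KR (n = 4) against 0.784 ± 0.599 (n = 2), log2 fold change 1.87 ± 0.51, adjusted p = 0.0642. The others named by the rule were Il18 in KR (adjusted p = 0.195) and KN1 (0.183), and Il1b in LR (0.375) and KN1 (0.39) and Il33 in LR (0.808).

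The genes beside the clusters were read in the same fit. The 3 nearest genes with a value on each side were Ormdl3, Ikzf3, Grb7, Psmd3, Med24 and Thra for the A cluster and Tsg101-ps, Pvt1, Myc, Fam49b, Asap1 and Efr3a for the C cluster. By edgeR 0 of the 36 comparisons passed, 5 had an unadjusted p under 0.05 and DESeq2 called 0. Those 5 were 2 of 12 genes in KR (22.9% of all genes), 0 in LR (15.5%) and 3 in KN1 (18.5%). Since edgeR called 1.60% (KR), 1.12% (LR) and 1.97% (KN1) of all tested genes, a count of 0 is near the background. Psmd3, 4.8 kb from Gsdma, had a log2 fold change of 0.13 ± 0.14 in LR (adjusted p = 0.703) and 0.32 ± 0.15 in KR (0.209). Ormdl3, 39.0 kb from Gsdma3, was at 0.18 ± 0.14 in LR (0.565). Fam49b, 16.8 kb from the C cluster, was at 0.00 ± 0.15 in KR (0.991) and 0.07 ± 0.14 in LR (0.863).

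The sequence before the start of Gsdma3, the member with the firmest change, is shown because RBPJ, the product of the deleted gene, binds DNA with the core TGGGAA. Of the 9 members, 3 are in the RefSeq promoter table used (Gsdma3, Gsdmc3 and Gsdme; build GRCm38.p6). The 250 bases before the Gsdma3 start are at chr11:98626099-98626348, plus strand, with the core in capitals.
Gsdma3 promoter: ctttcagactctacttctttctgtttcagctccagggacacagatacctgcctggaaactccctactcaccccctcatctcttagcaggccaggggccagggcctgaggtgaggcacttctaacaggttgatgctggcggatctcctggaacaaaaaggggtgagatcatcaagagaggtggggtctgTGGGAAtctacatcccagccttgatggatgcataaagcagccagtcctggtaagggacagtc

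The core occurred once, with its first base at position −62 from the start. It was found on either strand in 21.6% of 32851 promoters of this length and in 1 of the 3 members, so a match is common. The palindromes bound by STAT6 and by other STAT factors, TTC and GAA with any 4 or any 3 bases between them, were in 0 of the 3 members and in 5.85% and 7.02% of all promoters. A match describes the letters in this window, and binding was not measured.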

How the data were processed

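Per the labels' protocols, epidermal cells were freed from dorsal skin by trypsin and scraping and filtered, and their poly(A) RNA was sequenced. The deposited values are raw counts per gene in 1 table, made by the authors with STAR, HTSeq and DESeq2 on mm10, per the submitters' processing notes, without versions. The role of each tool, strand use and the treatment of reads that fit several places are not given in the sources used here.

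Counts were fitted with edgeR 4.0.16 (R 4.3.3; TMM factors, filterByExpr, robust quasi-likelihood F test, 6 group means over 18 mice), each mutant against its own controls, with Benjamini-Hochberg adjustment over 16517 genes. SE is the log2 fold change over the root of F. Groups of 2 take their spread from all mice (biological coefficient of variation 0.225). A p-value measures the spread between mice of a group, pooled over the 6 groups, each from 1 batch. It does not measure the spread between batches. The fit was tested on simulated data. No replicate pair agreed within sampling noise (lowest chi-square per degree of freedom 5.98). CPM use TMM-scaled library sizes; log2 CPM a prior count of 2; per-kilobase levels the longest coding transcript of GENCODE M21. Coding identity (Biopython 1.88, global alignment) stands in for protein identity, which was not analysed here. DESeq2 1.42.0 was an alternative.

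Members and lists were chosen with earlier results of these data known. Named were all members, pathway genes past the threshold and the 2 with the smallest adjusted p per list and mutant, the 3 nearest genes on each side of a cluster, and the 5 most correlated genes with a mean of at least 1 CPM. One pathway gene that this rule names is not reported here.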

Additional observations from a re-analysis of the deposited data

Results flagged for a closer look

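Gsdmd in KR mice was flagged because 3 of the 4 mice lay very close together. KR mouse 3 was at 3.962 CPM and the other 3 mice ran from 2.96 to 2.968 CPM. The gap to the nearest mouse thus took up 0.992 of the group's range. The spread itself was not large: the SD was 0.498 CPM, against 1.89 in LR and 0.817 in KN1 mice. Counts in KR mice 1, 3, 4 and 5 were 25, 40, 29 and 30. The KR values of Gsdmd were 1 of 15 groups of 4 mice examined in this way, and chance gives about 1 in 20. Without that mouse the log2 fold change of Gsdmd in KR was 1.15 (adjusted p = 0.197, edgeR's quasi-likelihood test), beside 1.27 with it.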

How the results depend on the processing

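Results were recomputed under 12 alternatives and with each of 18 mice left out. Of 1234 recomputed values, 1146 stayed alike: tested values kept their direction and side of the threshold, counts stayed within 1.5 times, and untested sums moved by less than the spread between mice. The 1234 include values of a mutant from fits without a mouse of another cohort, which could hardly move its fold change. No called member fold change reversed. Groups of 2 controls and low counts of Gsdmc2, Gsdmc3 and Gsdma2 limit the precision most.

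Members called numbered 1 in LR with each cohort fitted alone, 4 with all controls pooled and 4 with DESeq2, and 1 to 4 with a mouse left out; in KR they numbered 1 with second naming as a covariate, 1 without the second-named controls and 0 to 2 with a mouse left out. DESeq2 called 4 differences between mutants. The log2 change of the A sum per kilobase was 1.23 in LR and 0.0609 in KN1, and in KN1 0.0118 with the sum as 1 feature of the fit. With a mouse left out it ran from −0.21 to 0.37 for the A sum in KR, −0.11 to 0.10 for the A sum, −0.37 to 0.26 for the C sum and −0.45 to 0.35 for the C to A ratio in KN1.

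Uncalled log2 fold changes reversed with all controls pooled (Gsdma −0.24 in LR and 0.21 in KN1, Gsdmc 0.0845 and Gsdme −0.22 in KN1), with the second-naming covariate (Gsdma −0.20 in KR and −0.0178 in LR, Gsdme 0.39 in KR, Gsdmc 0.34 in KN1), with the hair covariate (Gsdmc 0.0807 in KN1) and without the second-named controls (Gsdma −0.14 in LR, Gsdmc2 −0.0071 in KN1; differences Gsdma 0.38 and Gsdmd 0.45 for KR minus LR, Gsdma3 0.21 for KR minus KN1, Gsdma −0.13 for LR minus KN1). With a mouse left out the ranges were −0.21 to 0.24 (Gsdma in KR), −0.18 to 0.79 (Gsdma3 in KR), −0.23 to 0.32 (Gsdma in LR), −0.43 to 0.10 (Gsdmc in KN1), −0.0066 to 1.60 (Gsdmc2 in KN1), −0.30 to 0.25 (Gsdma, KR minus LR), −0.46 to 0.27 (Gsdmd, KR minus LR), −0.0932 to 0.37 (Gsdma, KR minus KN1), −0.78 to 0.21 (Gsdma3, KR minus KN1) and −0.13 to 0.42 (Gsdma, LR minus KN1). The cause of these changes was not tested.

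LR mice and controls share the numbers 2 and 3, but their deviations gave r = 0.06 and −0.09, so the numbers do not pair the mice; the replicate block left 2 members called in LR and moved no member across the threshold. KR and KN1 mice share too few numbers with their controls for such a fit.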
